A study of Homo sapiens with 12 samples.

Results

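The complement genes described here are 9 of the 19775 human genes that had a probe set of their own on the arrays: the receptor gene C5AR1, the components C3, CFB, C1R and C1S, and the regulators CFI, CD46, CD55 and CD59. They were taken by name, and where several probe sets were annotated to 1 of these genes and no other, the one brightest on average across the 12 arrays leads. The 9 genes had 20 such probe sets. Of these, 17 passed the filter on low values, a log2 value above 4 on at least 3 arrays, and 8 of the 9 genes had a tested leading probe set. C5AR1 was chosen by its difference between Nnm and control arrays, so its Nnm values and their intervals are a description and carry no test. The other genes were chosen to accompany it with their values already known.

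Expression was measured in HK-2, an immortalised line derived from human kidney proximal tubule epithelium, on 1 Affymetrix array per sample. The groups were cells given the compound Nnm at a high dose for 24 h, vehicle cells at 24 h, cells given Nnm at a high dose for 48 h and vehicle cells at 48 h, with 3 biological replicates each. Treated and vehicle cells shared 1 culture medium, which held EGF and hydrocortisone and was supplemented with insulin, transferrin and selenite. Nnm is the labels' name for the compound, and the study's stated aim was to find expression signatures of kidney toxicity.

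Complement is a cascade of plasma and cell-surface proteins that tags and lyses microbes and calls in inflammatory cells. Its classical arm starts with the C1 complex, whose serine proteases are C1r and C1s, its alternative arm uses factor B, and both cleave C3 and then C5, which releases the anaphylatoxin bound by the receptor that C5AR1 encodes. Host cells protect themselves with factor I, which cuts deposited C3 and C4 fragments, and with the membrane proteins CD46, CD55 and CD59. Tubule cells of the kidney make several of these proteins themselves, C3 among them.

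The promoter windows of C5AR1 and CD55 are shown because these complement genes had the largest Nnm differences at 24 h. The sequences are RefSeq windows on GRCh38.p14, from 250 bases before to 50 after the annotated transcription start, and 7 of the 9 genes had such a window. The C5AR1 window is chr19:47309611-47309910, plus strand, and the gene lies next to the related receptor gene C5AR2. The CD55 window is chr1:207321428-207321727, plus strand, and the gene lies between C4BPA and CR2. Capitals mark the matches described after the sequences.
C5AR1: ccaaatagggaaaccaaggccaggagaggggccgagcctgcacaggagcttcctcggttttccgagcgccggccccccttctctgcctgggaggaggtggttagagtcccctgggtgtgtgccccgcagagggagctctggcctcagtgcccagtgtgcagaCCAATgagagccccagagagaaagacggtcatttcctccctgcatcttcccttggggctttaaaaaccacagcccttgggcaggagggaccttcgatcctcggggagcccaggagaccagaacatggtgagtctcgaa
CD55: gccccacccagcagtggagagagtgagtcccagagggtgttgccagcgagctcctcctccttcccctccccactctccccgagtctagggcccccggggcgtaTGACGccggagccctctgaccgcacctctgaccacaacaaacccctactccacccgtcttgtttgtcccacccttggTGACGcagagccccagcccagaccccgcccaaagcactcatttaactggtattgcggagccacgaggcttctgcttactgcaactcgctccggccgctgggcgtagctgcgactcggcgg
The C5AR1 window held 1 CCAAT box, searched as CCAAT on both strands, which starts at -88 from the transcription start. The same letters occur in 34.6% of all 35116 windows. The CD55 window held 2 cyclic AMP response half-sites, searched as TGACG on both strands, at -147 and -70, and 24.6% of windows hold at least 1. Neither window matched the other motifs searched: the AP-1 motif TGANTCA, held by 7.71% of windows, the E-box motif CACGTG (7.26%), the motif TTGCNNAA of the C/EBP family (10.5%), and those next described for CFB. The CFB window matched the NF-kB motif at -112, which 11.3% of windows hold, and the interferon-stimulated response element at -140 (3.57%). It also matched the STAT motif TTCNNNGAA at -92 (7.66%) and a TATA box, TATAAA, at -30 (11.5%). The STAT motif was not particular to CFB, as a C1R window matched it at -86 and CD59 windows at -128 and -184. Windows of C1R and CD59 also matched the C/EBP motif, and a CD59 window the AP-1 motif. CCAAT boxes were matched in windows of CFI, CD46 and CD59, and the half-site in windows of C1R and CD46. The motifs were chosen after the array values were seen, and a match of letters is not evidence of binding.

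Nnm replicate 2 stood apart from the other treated arrays at both times. A principal component analysis put 57.4% of the variance on its first axis, which placed Nnm replicate 2 at -16.1 at 24 h and -19.8 at 48 h, against 68.6 to 87.8 for Nnm replicates 1 and 3 and -49.6 to -44.2 for the 6 control arrays. Results for the complement genes are therefore also given without these 2 arrays, and since the arrays were singled out for lying near the controls, an adjusted p from the remaining 10 describes them and does not test a gene. Array medians were 2.913 to 2.981, and 22023 to 22228 probe sets lay above log2 4 on each array.

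Among the 8 complement genes tested, C5AR1 differed most between Nnm and control cells. Leaving it out, 1 of 7 genes passed the limma test at 24 h, CD46, which rose, and 0 of 7 passed at 48 h by the same test, where C1S alone had an unadjusted p under 0.05, as 30.6% of all tested probe sets did. Of all 22829 tested probe sets, 14.7% were called at 24 h and 10.2% at 48 h. The share of complement genes called was thus near the background at both times. The median difference of the 7 genes was 0.16 at 24 h and 0.15 at 48 h on the log2 scale, against -0.01 and 0.01 over all tested probe sets. Limma called 0 probe sets, and so 0 complement genes, for a change of the Nnm effect between the times, for control cells at 48 h against 24 h, or for Nnm cells at 48 h against 24 h, where 0, 2 (CFB and CD46) and 1 (C3) of the 7 genes had an unadjusted p under 0.05, against 6.21%, 8.04% and 13.7% of all tested probe sets. Adding the replicate number to the model as a block raised the background to 29.3% at 24 h and 22.1% at 48 h, and called CD55 beside CD46 at 24 h and C1S at 48 h. Without the Nnm arrays numbered 2 the background was 47% at 24 h and 42.1% at 48 h, and CD46 and CD55 were called at 24 h and CFB, C1S and CD55 at 48 h.

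**Figure D1:**
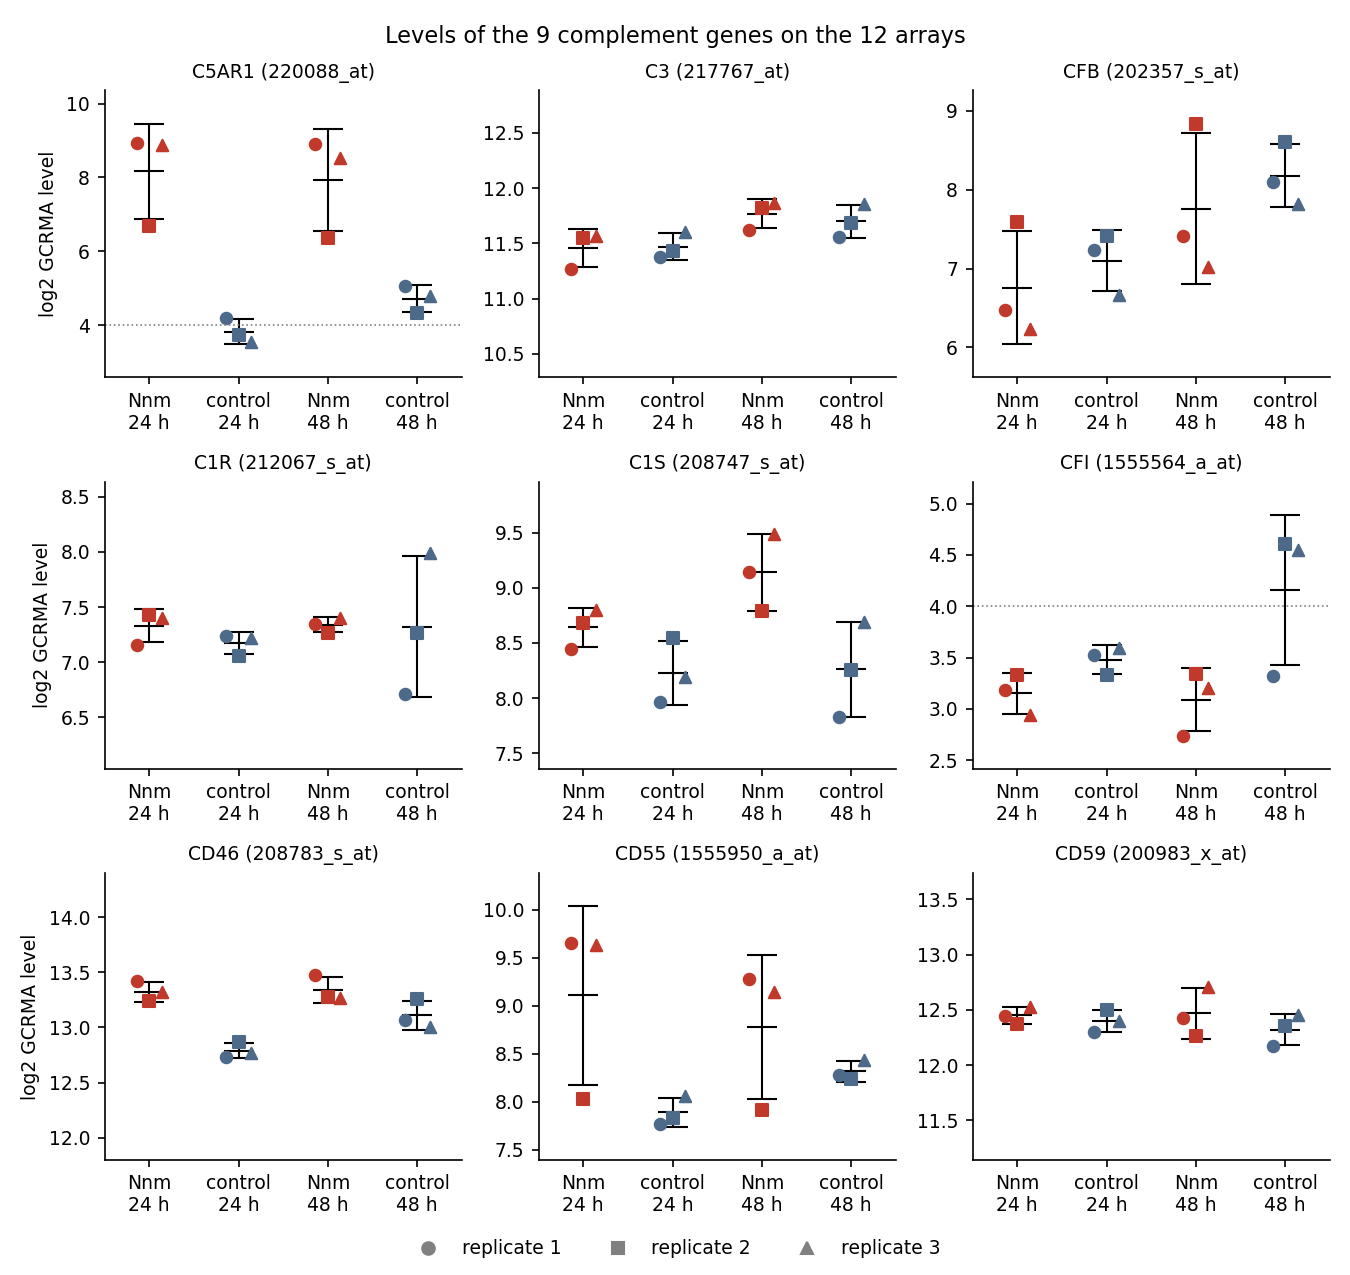
Log2 GCRMA level of each complement gene's leading probe set (y axis, own scale per gene) by group, Nnm left of control at each time; symbols mark replicates, and bars the mean and SD of 3 arrays. The dotted line is the filter level of 4, and C5AR1 is far higher on all Nnm arrays than on the control arrays.

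C5AR1 encodes the G protein-coupled receptor through which the C5 fragment C5a recruits and activates myeloid cells. At 24 h its probe set 220088_at had log2 levels of 8.94, 6.68 and 8.88 in Nnm cells, against 4.20, 3.74 and 3.53 in control cells. All 3 Nnm arrays were above all 3 control arrays, replicate 2 was the lowest Nnm array, and 2 of the 3 control arrays lay under the filter level. The means were 8.17 ± 1.29 in Nnm cells and 3.82 ± 0.34 in control cells (SD, n = 3 each), a difference of 4.34 with a 95% interval of 2.78 to 5.91. This interval takes no account of the choice of C5AR1 by its difference, so it is not a test. Since the control mean lay under the filter level, the Nnm mean was taken against that level, which it exceeded 18.0-fold. This compares means and is not a lower limit over the arrays. Nnm replicate 2 lay 2.93 above its same-numbered control array.

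At 48 h the C5AR1 levels were 8.91, 6.36 and 8.54 in Nnm cells, against 5.06, 4.32 and 4.78 in control cells. The groups again did not overlap, and replicate 2 was again the lowest Nnm array. The means were 7.94 ± 1.38 in Nnm cells and 4.72 ± 0.37 in control cells (SD, n = 3 each), a difference of 3.22, or 9.32-fold. Its 95% interval of 1.65 to 4.79 likewise takes no account of how the gene was chosen. Between arrays with the same number, Nnm minus control was 4.74, 2.93 and 5.36 at 24 h and 3.85, 2.05 and 3.76 at 48 h, so replicate 2 had the smallest C5AR1 difference at both times. Without Nnm replicate 2 the C5AR1 difference was 5.09 at 24 h and 4.01 at 48 h.

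By mean level, the groups ran Nnm at 24 h, Nnm at 48 h, control at 48 h and control at 24 h for C5AR1. Nnm cells at 48 h overlapped with those at 24 h, with a difference of -0.23. Control cells at 48 h were 0.90 above those at 24 h (95% interval -0.67 to 2.46) without overlap, but the limma test did not call this (adjusted p = 0.804). Of all tested probe sets, 11.2% were likewise higher without overlap in control cells at 48 h. The C5AR1 control mean at 24 h, 3.82, lay under the filter level, which the control mean at 48 h exceeded 1.65-fold. The Nnm effect on C5AR1 differed by -1.12 between 48 h and 24 h, with a wide interval of -3.34 to 1.09. This value also draws on the 24 h control mean under the filter level.

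The other known receptors of complement fragments gave no such values. All 8 further receptor genes with a probe set, among them the C3a receptor gene C3AR1, the second C5a receptor gene C5AR2 next to C5AR1, CR2 and the integrin genes ITGAM, ITGAX and ITGB2, stayed under log2 4 on all 12 arrays, with levels of 1.98 to 3.11. None of them was tested. The 11 chemoattractant receptor genes with a probe set, of 12 listed, such as the formyl peptide receptor genes FPR1, FPR2 and FPR3, also stayed under 4 on all arrays, at 1.93 to 3.58.

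C5AR1 is best known from leukocytes, so leukocyte and myeloid markers were read beside it. Of 9 such genes, 7 had a probe set, and all 7, including PTPRC, CD14, LYZ and CSF1R, lay under the filter level on all 12 arrays, between 2.12 and 3.04. Their mean level per array was 2.49 to 2.59 in Nnm cells and 2.47 to 2.52 in control cells at 24 h, and 2.48 to 2.51 in Nnm cells and 2.49 to 2.52 in control cells at 48 h. On bulk arrays, fewer cells with a transcript and less transcript per cell cannot be told apart.

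Genes on which the C5a receptor is known to signal were mostly expressed. Of 14 listed G protein subunits, receptor kinases, arrestins and phospholipases, 11 were tested. At 24 h 1 rose and 2 fell, and at 48 h 1 rose and 1 fell, with median differences of -0.30 and -0.14. Of all tested probe sets, 14.7% were called at 24 h and 10.2% at 48 h, and with the block 29.3% and 22.1%. Without Nnm replicate 2 these shares were 47% and 42.1%. With the block 3 fell at 24 h, where the inhibitory G protein gene GNAI2, at -0.31, gained a call (adjusted p = 0.458, and 0.0458 with the block), and without Nnm replicate 2 there were 3 falls at 48 h. ARRB1, whose arrestin product uncouples and internalises activated receptors, had levels of 8.34, 8.03 and 7.84 in Nnm cells, against 6.18, 6.29 and 6.07 in control cells at 24 h. It rose by 1.89 (adjusted p = 0.0236), and at 48 h by 2.02 (adjusted p = 0.0212). The receptor kinase gene GRK6 fell by 0.86 (adjusted p = 0.0415) and the related G protein gene GNAI3 fell by 0.43 (adjusted p = 0.0397) at 24 h, and the beta subunit gene GNB1 fell by 0.71 (adjusted p = 0.0294) at 48 h. Each of these 5 calls was lost when Nnm replicate 1, Nnm replicate 3, control replicate 1 or control replicate 3 of its time was left out, with adjusted p values of 0.0684 to 0.142. Leaving out control replicate 2 ended 3 of them, Nnm replicate 2 ended 1, and an array of the other time ended 2.

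C3, the protein on which all arms of the cascade converge, did not pass the test at either time. At 24 h its levels were 11.27, 11.55 and 11.57 in Nnm cells, against 11.38, 11.43 and 11.60 in control cells. The groups overlapped, with means of 11.46 ± 0.17 in Nnm cells and 11.47 ± 0.12 in control cells (SD, n = 3 each), and the interval of the difference was -0.31 to 0.30 (adjusted p = 0.985). At 48 h the levels were 11.62, 11.82 and 11.87 in Nnm cells, against 11.56, 11.68 and 11.86 in control cells. The difference was 0.07, with an interval of -0.23 to 0.38 (adjusted p = 0.763). Nnm cells at 48 h lay above those at 24 h without overlap, by 0.31, as did 5.61% of tested probe sets, and this was not called (adjusted p = 0.360).

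CFB, factor B, supplies the catalytic part of the alternative pathway's C3 convertase. At 24 h its levels were 6.47, 7.59 and 6.24 in Nnm cells, against 7.24, 7.41 and 6.66 in control cells. At 48 h they were 7.42, 8.84 and 7.02 in Nnm cells, against 8.10, 8.61 and 7.82 in control cells. Nnm replicates 1 and 3 were under every control array of their time, while Nnm replicate 2 was the highest array of all 6 at both times. The differences were -0.34 (95% interval -1.41 to 0.73, adjusted p = 0.646) at 24 h and -0.42 (-1.49 to 0.65, adjusted p = 0.595) at 48 h. Without Nnm replicate 2 they were -0.75 (adjusted p = 0.052) and -0.96 (adjusted p = 0.0225). The second CFB probe set, 211920_at, ranged from 4.82 to 5.54 over the arrays and differed by 0.02 at 24 h and -0.21 at 48 h.

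Among the tested leading probe sets of the complement genes, that of CFB had the largest difference with time in control cells. Its mean was 8.18 ± 0.40 at 48 h and 7.10 ± 0.39 at 24 h (SD, n = 3 each). The difference was 1.07 with an interval of 0.00 to 2.14, without overlap, and was not called (adjusted p = 0.620). Nnm cells differed by 1.00 between 48 h and 24 h, with overlap (adjusted p = 0.393).

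C1R and C1S encode the proteases of the C1 complex and are neighbours in the genome. At 24 h C1R had levels of 7.16, 7.43 and 7.40 in Nnm cells, against 7.24, 7.06 and 7.22 in control cells, a difference of 0.16 (95% interval -0.41 to 0.73, adjusted p = 0.695). At 48 h the levels were 7.35, 7.26 and 7.40 in Nnm cells, against 6.71, 7.26 and 7.99 in control cells, a difference of 0.02 (-0.55 to 0.59, adjusted p = 0.970). The C1R groups overlapped at both times, and the control arrays at 48 h were the most spread.

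C1S, which cleaves C4 and C2 once C1R has activated it, was higher with Nnm at 48 h by a margin just outside the call. Its levels at 24 h were 8.44, 8.68 and 8.80 in Nnm cells, against 7.96, 8.54 and 8.19 in control cells, with overlap and a difference of 0.41 (95% interval -0.15 to 0.97, adjusted p = 0.264). At 48 h they were 9.14, 8.79 and 9.49 in Nnm cells, against 7.83, 8.25 and 8.69 in control cells. All 3 Nnm arrays were above all 3 control arrays at 48 h, as were 18.7% of all tested probe sets. The 48 h means were 9.14 ± 0.35 in Nnm cells and 8.26 ± 0.43 in control cells (SD, n = 3 each), a difference of 0.88 (0.33 to 1.44), or 1.85-fold, with an adjusted p of 0.0504. With the replicate number as a block the adjusted p was 0.0219, and the differences between same-numbered arrays were 1.31, 0.54 and 0.80. Without Nnm replicate 2 the 48 h difference was 1.06 (adjusted p = 0.0121). The second C1S probe set, 1555229_a_at, differed by 0.85 at 48 h (adjusted p = 0.142, and 0.0385 with the block). The change of the C1S effect between the times was 0.47 and was not called (adjusted p = 0.822).

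**Figure D2:**
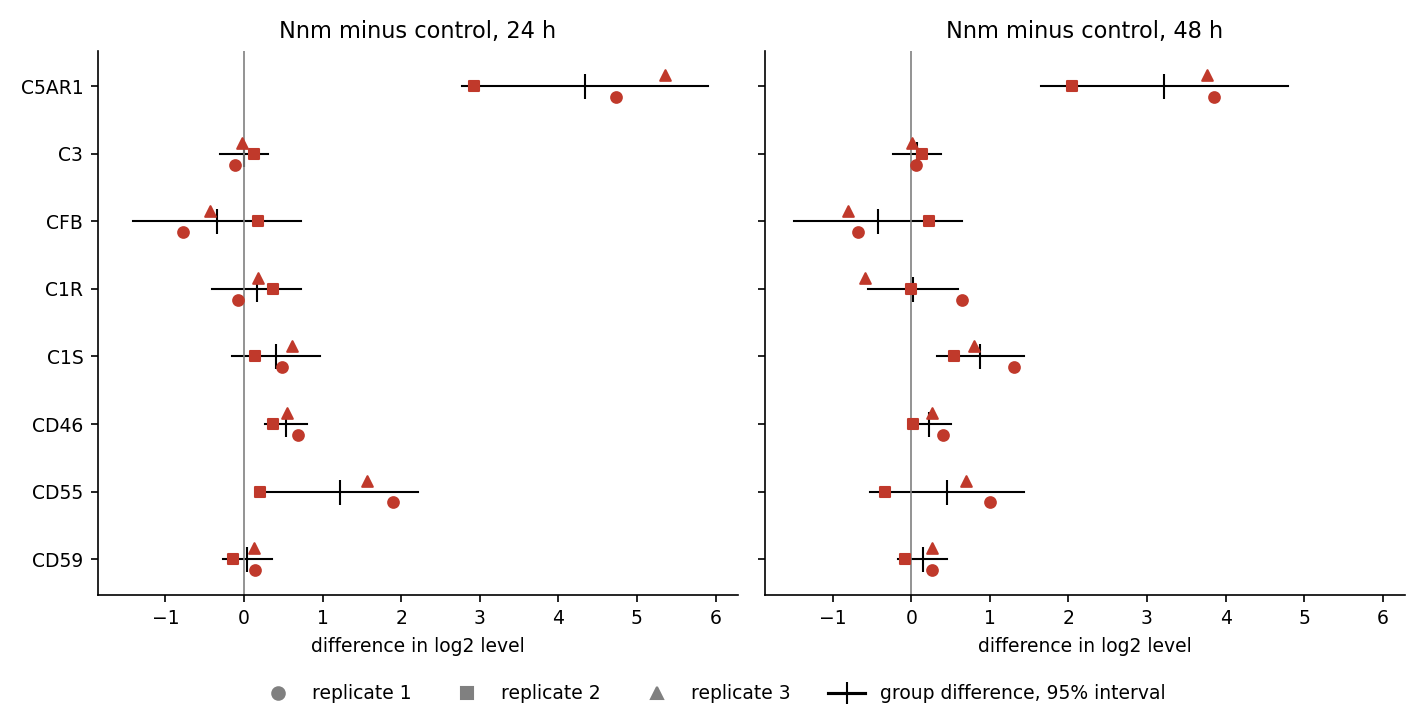
Difference in log2 level, Nnm minus control (x axis), for the 8 tested complement genes at 24 h (left) and 48 h (right); symbols are differences between same-numbered arrays, and lines the group difference with its 95% interval. For C5AR1, CD46, CD55 and C1S, replicate 2 gave the smallest of the 3 differences at both times. The C5AR1 intervals take no account of its choice by its difference.

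CFI, the soluble protease that cuts C3b and C4b, lay under the filter level on nearly all arrays and was not tested. Its leading probe set, 1555564_a_at, read 3.18, 3.33 and 2.94 in Nnm cells, against 3.52, 3.33 and 3.59 in control cells at 24 h. At 48 h it read 2.74, 3.34 and 3.20 in Nnm cells, against 3.32, 4.61 and 4.55 in control cells. Only control replicates 2 and 3 at 48 h were above 4. The second CFI probe set, 203854_at, read 2.05, 2.31 and 2.03 in Nnm cells at 48 h, against 3.00, 3.71 and 3.26 in control cells, without overlap and all under 4. At 24 h it read 2.05, 2.03 and 2.06 in Nnm cells, against 2.05, 2.57 and 2.06 in control cells. Its mean thus went from 2.23 to 3.32 over time in control cells and from 2.05 to 2.13 in Nnm cells. In a fit with no filter the 48 h differences were -1.07 (adjusted p = 0.155) and -1.19 (adjusted p = 0.029) for these probe sets, and at such levels GCRMA values are close to the array background.

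The membrane regulators act at separate steps: CD46 is a cofactor for factor I, CD55 breaks up the C3 convertases, and CD59 blocks the membrane attack complex. CD46 was the complement gene, other than C5AR1, that rose. Its levels at 24 h were 13.42, 13.24 and 13.32 in Nnm cells, against 12.73, 12.87 and 12.77 in control cells. The groups did not overlap, which held in the same direction for 18.4% of tested probe sets. The means were 13.32 ± 0.09 in Nnm cells and 12.79 ± 0.07 in control cells (SD, n = 3 each), a difference of 0.53 (95% interval 0.27 to 0.80), or 1.45-fold, with an adjusted p of 0.0228. Without Nnm replicate 2 the difference was 0.58.

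With 1 array left out the CD46 difference stayed between 0.49 and 0.58, but its call depended on which array was removed. It was lost without Nnm replicate 1 (0.49, adjusted p = 0.102), Nnm replicate 3 (0.54, adjusted p = 0.0797), control replicate 1 (0.51, adjusted p = 0.0774) or control replicate 3 (0.52, adjusted p = 0.0905) of 24 h. It was also lost with the 6 arrays of 24 h fitted alone (adjusted p = 0.0697). Calls over all tested probe sets fell in the same fits. They went from 3366 to 86, 192, 404 and 81 without those single arrays, in the order given, and to 112 with the 6 arrays. The other CD46 probe sets, 207549_x_at and 211574_s_at, differed by 0.46 (adjusted p = 0.0612, and 0.0250 with the block) and 0.51 (adjusted p = 0.0546, and 0.0169 with the block) at 24 h. At 48 h CD46 had levels of 13.48, 13.28 and 13.27 in Nnm cells, against 13.07, 13.26 and 13.00 in control cells. The closest arrays, Nnm replicate 3 and control replicate 2, were nearly level, and the difference of 0.23 (95% interval -0.03 to 0.50) was not called (adjusted p = 0.212). The change of the effect with time was -0.30 (adjusted p = 0.781), and control cells at 48 h lay 0.32 above those at 24 h without overlap (adjusted p = 0.550).

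CD55, known as decay-accelerating factor and held in the membrane by a glycosylphosphatidylinositol (GPI) anchor, had the second largest Nnm difference after C5AR1 at 24 h. Its levels were 9.66, 8.03 and 9.63 in Nnm cells, against 7.77, 7.83 and 8.06 in control cells. Nnm replicates 1 and 3 were above every control array, and Nnm replicate 2 lay between control replicates 2 and 3. The means were 9.11 ± 0.93 in Nnm cells and 7.89 ± 0.15 in control cells (SD, n = 3 each), a difference of 1.22 (95% interval 0.24 to 2.21), with an adjusted p of 0.0824. With the replicate number as a block the adjusted p was 0.0304. Without Nnm replicate 2 the CD55 difference was 1.76 (adjusted p = 2e-05).

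At 48 h CD55 had levels of 9.28, 7.92 and 9.14 in Nnm cells, against 8.28, 8.24 and 8.44 in control cells. Nnm replicate 2 was under all control arrays and the other Nnm arrays were above them. The difference was 0.46 (95% interval -0.53 to 1.44, adjusted p = 0.517), and 0.89 without Nnm replicate 2 (adjusted p = 0.000683). The change of the CD55 effect with time was -0.76 (adjusted p = 0.835), and -0.87 without these arrays (adjusted p = 0.0198). The 2 other CD55 probe sets ran the same way at both times, 201926_s_at with 1.31 and 0.62 and 201925_s_at with 1.55 and 0.32. At 24 h their adjusted p values were 0.0789 (0.0342 with the block) and 0.152 (0.0675 with the block).

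CD59, also GPI-anchored, was not called by its leading probe set at either time. At 24 h its levels were 12.44, 12.37 and 12.53 in Nnm cells, against 12.30, 12.50 and 12.40 in control cells, a difference of 0.04 (95% interval -0.27 to 0.36, adjusted p = 0.851). At 48 h they were 12.43, 12.26 and 12.71 in Nnm cells, against 12.17, 12.35 and 12.45 in control cells, a difference of 0.15 (-0.17 to 0.46, adjusted p = 0.510). The groups overlapped at both times.

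One of the 5 CD59 probe sets read differently from the leading one. At 48 h 212463_at had levels of 9.06, 8.18 and 8.58 in Nnm cells, against 7.86, 7.84 and 7.81 in control cells, without overlap, and was called at 0.77 (95% interval 0.34 to 1.20, adjusted p = 0.0353). This call was lost without any 1 of the 3 control arrays at 48 h, without Nnm replicate 1 or 3 at 48 h, and without any 1 of the 3 control arrays at 24 h, with adjusted p values of 0.053 to 0.108 and a difference of 0.55 without Nnm replicate 1. It was also lost with no filter (adjusted p = 0.0855) and with the 6 arrays of 48 h fitted alone (adjusted p = 0.106). The probe sets 200985_s_at and 200984_s_at differed by 0.21 and 0.24 at 48 h, and 228748_at stayed between 2.63 and 3.06 and was not tested.

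**Figure D3:**
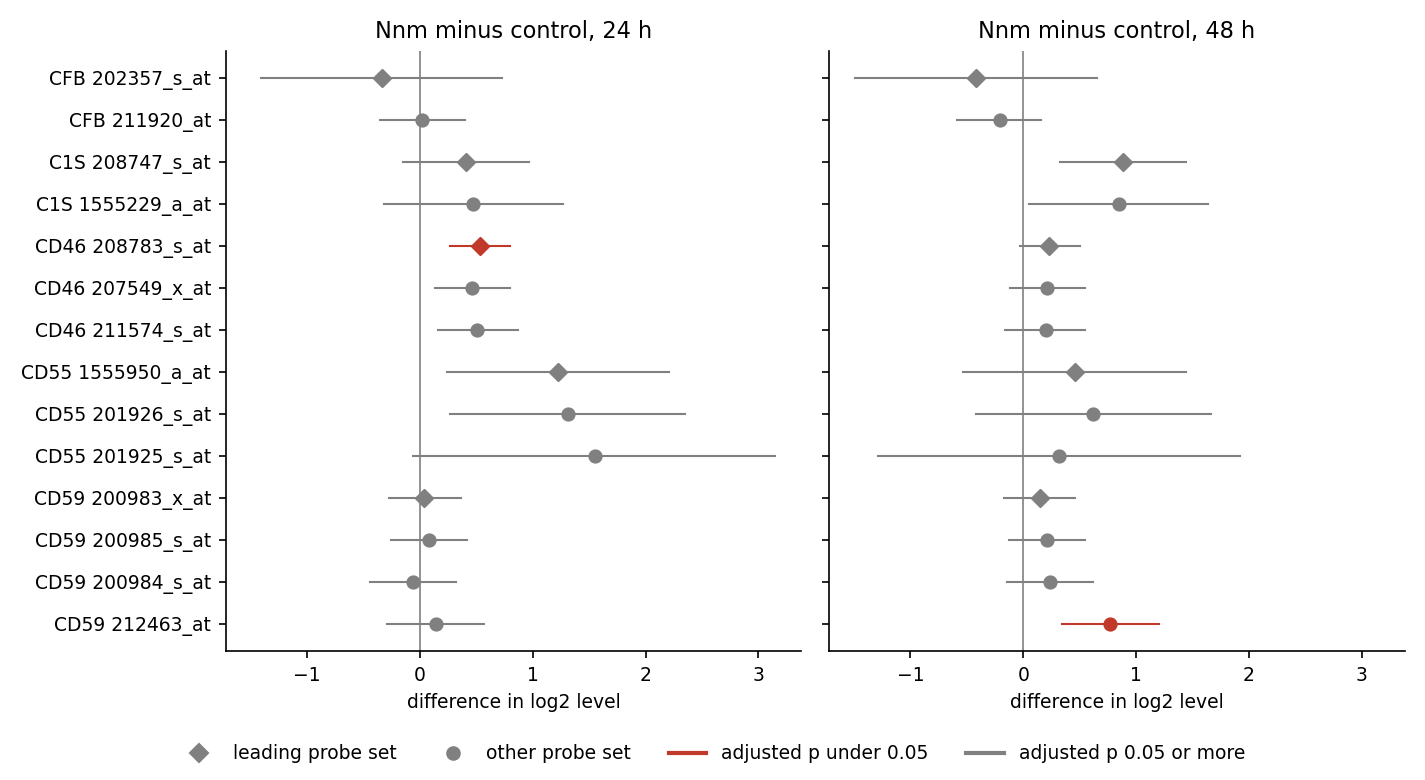
Difference in log2 level, Nnm minus control (x axis), with 95% intervals, for every tested probe set of the complement genes that have more than 1 tested, at 24 h (left) and 48 h (right). Diamonds are leading probe sets and red marks an adjusted p under 0.05, which 1 CD46 probe set reached at 24 h and 1 CD59 probe set at 48 h.

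Most other complement components lay under the filter level in these cells. Of 26 listed, 24 had a probe set and 21 stayed under 4 on all 12 arrays, including those of C1q, C2, the terminal components C6, C7 and C9, and the lectin pathway proteases MASP1 and MASP2. At each time 1 of the 3 tested genes fell and 0 rose, with median differences of -0.82 at 24 h and -0.49 at 48 h. The background of calls was 14.7% of all tested probe sets at 24 h and 10.2% at 48 h. The gene that fell was C1QBP, which encodes a mostly mitochondrial protein that binds the globular heads of C1q. Its levels at 24 h were 11.52, 11.58 and 11.45 in Nnm cells, against 12.37, 12.12 and 12.52 in control cells, a difference of -0.82 (adjusted p = 0.0120), and at 48 h the difference was -0.63 (adjusted p = 0.0235). Both calls were lost without Nnm replicate 1, Nnm replicate 3 or control replicate 3 of their time, with adjusted p values of 0.0567 to 0.0932, and 1 of the 2 was lost without control replicate 1 or control replicate 2.

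C1RL, the neighbour of C1R that encodes a protease related to it, had levels of 6.40, 8.95 and 5.58 in Nnm cells, against 8.18, 8.02 and 7.87 in control cells at 24 h. Nnm replicate 2 was the highest of the 6 arrays and the other Nnm arrays were the lowest, so that the difference of -1.05 (adjusted p = 0.286) became -2.03 without it (adjusted p = 0.00017). C5, the precursor of the C5AR1 ligand, had levels of 7.79, 9.13 and 6.97 in Nnm cells, against 8.85, 8.58 and 7.92 in control cells at 48 h. The C5 groups overlapped, with a difference of -0.49 (adjusted p = 0.696).

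Among the other complement regulators, 12 of 17 had a probe set and 2 were tested. At 24 h 1 rose and 0 fell, and at 48 h 0 rose and 1 fell. The background was 14.7% of all tested probe sets at 24 h and 10.2% at 48 h, and 29.3% and 22.1% with the block. CLU, clusterin, which binds terminal complexes and also acts as a secreted chaperone, had levels of 13.26, 13.25 and 12.98 in Nnm cells, against 12.89, 12.25 and 12.38 in control cells at 24 h. It rose by 0.66 (adjusted p = 0.0414), and at 48 h the difference was 0.58 (adjusted p = 0.0696, and 0.0213 with the block). The probe set annotated to CFHR2, a gene of the factor H family, fell by 1.17 at 48 h (adjusted p = 0.0454) with levels of 5.68, 7.11 and 5.94 in Nnm cells, against 7.18, 7.78 and 7.28 in control cells. Genes of that family are near-identical in sequence, so which of them this probe set reads is uncertain. Both calls were lost without Nnm replicate 1, Nnm replicate 3, control replicate 2 or control replicate 3 of their time, with adjusted p values of 0.0882 to 0.167, and 1 of the 2 without control replicate 1. Leaving out an array of the other time ended each of them at least once.

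The genes that are known to control complement genes in epithelial cells, those of the NF-kB, STAT and C/EBP pathways, included 21 tested of 25 listed. JAK2 passed the filter only through Nnm arrays, 5 of them and 0 control arrays, so it is left out of the counts. Of the other 20, 2 rose and 0 fell at 24 h, and 2 rose and 0 fell at 48 h, with median differences of 0.35 and 0.45. With the block 4 rose at each time. Without Nnm replicate 2 there were 10 rises and 1 fall at 24 h and 14 rises at 48 h. Of all tested probe sets, 14.7% were called at 24 h and 10.2% at 48 h. With the block these shares were 29.3% and 22.1%, and without Nnm replicate 2 they were 47% and 42.1%. IL1R1, the receptor of interleukin-1, had levels of 9.00, 7.60 and 9.04 in Nnm cells, against 5.91, 6.23 and 5.72 in control cells at 24 h. It rose by 2.59 (adjusted p = 0.00912), and at 48 h by 1.81 (adjusted p = 0.0201).

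JAK2, a kinase of cytokine receptors, had levels of 6.55, 4.98 and 6.76 in Nnm cells, against 3.82, 3.77 and 3.32 in control cells at 24 h. Its Nnm mean was 4.28-fold over the filter level, given as a description with no test. IL6ST, the shared receptor subunit of the interleukin-6 family, rose by 0.57 at 24 h (adjusted p = 0.0161), and NFKBIA, the inhibitor of NF-kB that is itself an NF-kB target, rose by 0.88 at 48 h (adjusted p = 0.0272). All 4 calls of this group were lost without Nnm replicate 1 or control replicate 3 of their time, with adjusted p values of 0.0517 to 0.0843. Of the 4, 3 were lost without Nnm replicate 3 and 3 without control replicate 1, and 1 was lost without control replicate 2.

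CD55 and CD59 need a GPI anchor to stay on the cell surface, and 26 of 29 listed genes of its synthesis were tested. At 24 h 3 rose and 5 fell, and at 48 h 1 rose and 2 fell, with median differences of -0.16 and 0.00. With the block 5 rose and 7 fell at 24 h, and 2 rose and 2 fell at 48 h. Without Nnm replicate 2 there were 5 rises and 14 falls at 24 h, and 5 rises and 7 falls at 48 h. The shares of all tested probe sets called were 14.7% at 24 h and 10.2% at 48 h. They were 29.3% and 22.1% with the block, and 47% and 42.1% without Nnm replicate 2. The mannosyltransferase gene PIGM had levels of 3.65, 6.33 and 3.15 in Nnm cells, against 7.03, 6.84 and 7.27 in control cells at 24 h, a difference of -2.67 (adjusted p = 0.0314). The acyltransferase gene PIGW fell by 2.02 (adjusted p = 0.0293), with levels of 6.20, 8.35 and 6.71 in Nnm cells, against 8.90, 8.95 and 9.48 in control cells. In both genes Nnm replicate 2 lay closest to the control arrays.

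The smaller falls at 24 h were PIGC at 1.18 (adjusted p = 0.0371), DPM3 at 1.03 (adjusted p = 0.0449) and PIGS at 0.79 (adjusted p = 0.0488). PIGS also fell by 1.10 (adjusted p = 0.0218) and DPM2 by 0.67 (adjusted p = 0.0410) at 48 h. PIGK, a subunit of the transamidase that attaches the anchor, rose by 0.76 at 48 h (adjusted p = 0.0168). The 3 rises at 24 h were PIGK, PIGL and MPPE1, named after their values were seen, with 0.56, 0.71 and 0.69. All 8 calls of genes named by rule were lost without Nnm replicate 1, Nnm replicate 3, control replicate 1 or control replicate 3 of their time, with adjusted p values of 0.062 to 0.17. Leaving out control replicate 2 ended 6 of them, and an array of the other time 4.

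**Figure D4:**
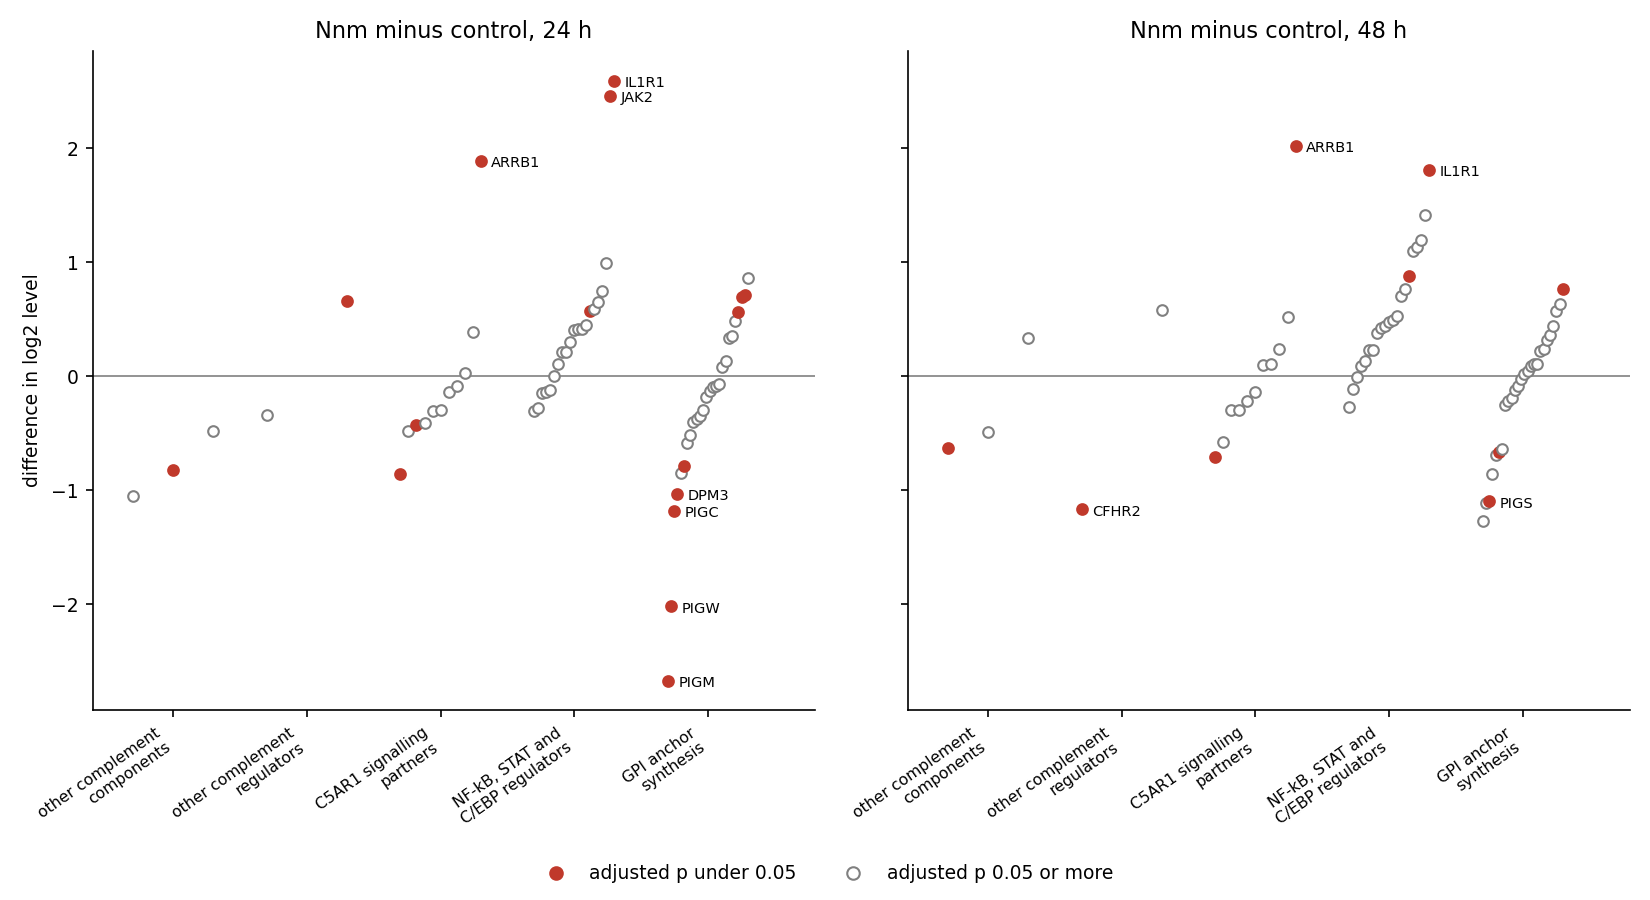
Difference in log2 level, Nnm minus control (y axis), of every tested gene in 5 lists related to the complement genes, at 24 h (left) and 48 h (right), sorted within a list along the x axis. Red points have an adjusted p under 0.05 (JAK2 passed the filter only through Nnm arrays), and names mark called genes with a difference of at least 1 in size, such as IL1R1 at 2.59 and PIGM at -2.67 at 24 h.

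Markers of cell identity were read beside the complement genes. Of 10 proximal tubule genes, 9 had a probe set, and 7, among them LRP2, CUBN, AQP1 and the phosphate transporter gene SLC34A1, stayed under 4 on all 12 arrays. DPP4 and PAX8 were expressed and not called. At 24 h their differences were 0.48 (adjusted p = 0.305) and 0.29 (adjusted p = 0.203). At 48 h they were 1.05 (adjusted p = 0.0621, and 0.00957 with the block) and 0.43 (adjusted p = 0.0987, and 0.0876 with the block). All 5 epithelial genes were expressed and 0 were called by limma at either time, against 14.7% of all tested probe sets at 24 h and 10.2% at 48 h. An unadjusted limma p under 0.05 was reached by 0 at 24 h and 1 at 48 h, against 35.8% and 30.6% of all tested probe sets. The lowest adjusted p values at 24 h were those of KRT18 with -0.65 (0.150) and KRT19 with -0.64 (0.268). At 48 h they were those of CDH1 with -0.87 (0.118, and 0.0375 with the block) and EPCAM with -0.10 (0.631). KRT8 at 24 h, at -0.59 (adjusted p = 0.271), was called with the block (0.0222), and without Nnm replicate 2 KRT18 and KRT19 were called lower at 24 h and higher at 48 h, and CDH1 lower at 48 h. COL1A1 was the 1 expressed gene of 5 fibroblast markers, at -0.80 (adjusted p = 0.0729, and 0.0334 with the block) at 24 h and -0.55 (0.209) at 48 h. PECAM1 was the 1 tested gene of 4 endothelial markers, with differences of 0.17 (0.791) at 24 h and 0.68 (0.262) at 48 h. Its group means of 4.1 to 4.78 lay close to the filter level, so its expression is not established. Without Nnm replicate 2, COL1A1 was called lower at both times, and DPP4, PAX8 and PECAM1 were called higher at 48 h. That fit called 47% of all tested probe sets at 24 h and 42.1% at 48 h.

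The genes whose levels ran most like C5AR1 over the 12 arrays were ranked by Pearson correlation among 10962 other tested genes, as a description in which the arrays share 4 groups and 1 processing. The highest were CCNG2 and HECA at 0.991, ANKRA2 at 0.989, KCNK1 at 0.987 and TIAM2 at 0.986, and the lowest were CCNH at -0.991 and RNASEH1 at -0.989. TIAM2, for example, averaged 9.06 in Nnm cells and 6.36 in control cells at 24 h. Of the complement genes, CD55 was nearest to C5AR1 at 0.867, which ranked 967, followed by CD46 at 0.850, ranked 1125, and C1S at 0.674. CD59 was at 0.443, C1R at 0.143, C3 at 0.024 and CFB at -0.394.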

How the data were processed

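The values are the authors' deposited log2 expression levels. The submitters' processing notes name GCRMA, without a version. This method adjusts for background by probe sequence and brings the arrays to a common distribution, so it hides shifts that most genes share, and the sources used here do not say which arrays were normalised together. Probe sets were named from GEO's platform annotation: 41091 name 1 gene, 1801 several and 11721 none, beside 62 control probe sets left out.

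All 12 arrays entered 1 limma 3.58.1 model under R 4.3.3 with 4 group means and 8 residual degrees of freedom, as 22829 probe sets above log2 4 on at least 3 arrays. Calls are at a Benjamini-Hochberg adjusted p under 0.05 over all of them, and every adjusted p is limma's. The fit was also run on simulated data with independent noise. These held neither paired samples nor an outlying replicate, so that run does not show how the fit handles them. Same-numbered arrays of different groups deviated together in the data, with 18 correlations of 0.162 to 0.669, while the labels state no pairing. The median of -0.208 for 36 pairs of different numbers is not separate evidence, since deviations from a group mean cancel within the group. The main model leaves the replicate number out, and the block that holds it is given as an alternative. Where a group mean lay under the filter level, a fold is that of the other mean over the level, which does not count the spread of the arrays. The number of arrays limits the precision.

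The members and the 12 other gene lists were chosen with earlier results of these data known. Each list is named by up to 5 called genes with the largest change per Nnm comparison, or by the 2 of lowest p if under 2 were called, and likeness by the 5 highest and 2 lowest correlations. Lists are described by counts with no test. Alternatives were no filter, a filter at log2 5, quantile normalisation, trended and robust variance, the block, each time fitted alone, other probe sets, and leaving out single arrays or both Nnm arrays numbered 2. Promoters are from RefSeq on GRCh38.p14.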

Additional observations from a re-analysis of the deposited data

How the results depend on the processing

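The number of complement genes called, C5AR1 left out, was 1 at 24 h, against 0 with only the 6 arrays of that time and 2 with the replicate block or without the Nnm arrays numbered 2. At 48 h it was 0, against 1 with a filter at log2 5, with trended and robust variance or with the block, and 3 without the Nnm arrays numbered 2. Without those arrays 1 gene, CD55, was called for a change of effect with time. With 1 array left out it was 0 to 2 at 24 h, with 0 without Nnm replicate 1 or 3 or control replicate 1 or 3 of 24 h and 2 without either Nnm replicate 2. It was 0 to 1 at 48 h, with 1 without either Nnm replicate 2, and 0 to 0 in the other comparisons. The differences that turned sign were those of C3 at 24 h (0.01 with quantile normalisation, -0.06 to 0.09 with 1 array left out), CFB at 24 h (0.02 in its second probe set), CFB in Nnm cells over time (-0.0 in that probe set), C1R at 48 h (-0.04 with quantile normalisation, -0.29 to 0.35), CD59 at 24 h (-0.06 in 200984_s_at, -0.01 to 0.09), C5 at 48 h (-1.07 to 0.01) and PECAM1 at 24 h (-0.4 without the Nnm arrays numbered 2, -0.4 to 0.48). C5AR1 kept its direction throughout, with 3.96 to 5.09 at 24 h and 2.73 to 4.01 at 48 h.

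Over all probe sets, 3366 were called at 24 h, against 848 with no filter, 6700 with the block, 112 with only 6 arrays, 10730 without the Nnm arrays numbered 2 and 81 (without control replicate 3) to 8683 (without Nnm replicate 2) with 1 array left out. At 48 h 2323 were called, against 842, 5046, 115, 9605 and 207 (without Nnm replicate 3) to 6117 (without Nnm replicate 2). For the change with time the count was 0, against 2 with no filter, 2556 without those arrays and 0 to 1028. For control cells over time it was 0, against 1 with no filter, 12 with the block, 26 without those arrays and 0 to 4, and for Nnm cells over time 0, against 16 with no filter, 4985 without those arrays and 0 to 3683 with 1 array left out. The causes of these shifts were not tested. Beside the calls it added, given with the results, the block ended 0 of the calls named. Of 23 calls of single genes or probe sets named, C5AR1 and JAK2 apart, 16 were lost with no filter, 22 with only the 6 arrays of their time, 2 with quantile normalisation and 1 without the Nnm arrays numbered 2. The number of arrays and signals near background limit what small differences can show.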
